A study of Saccharomyces cerevisiae with 24 samples.

Results

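The maltose utilisation genes of budding yeast (Saccharomyces cerevisiae) examined here were MAL11 (YGR289C), MAL12 (YGR292W), MAL13 (YGR288W), MAL31 (YBR298C), MAL32 (YBR299W), MAL33 (YBR297W) and IMA1 (YGR287C). They were chosen by name, as the genes of the MAL1 and MAL3 loci with the neighbouring isomaltase gene. The 7 genes are among 6696 genes in the count files and 6663 transcripts in the codon files, and all 7 were found in both. The choice was made with their levels across strains in view, so levels that compare strains are given as a description with no test. Changes between IP and input or between fractions were tested within each strain. Ribosome footprints were sequenced from 24 libraries in 12 groups of 2 replicates. Each library is either an immunoprecipitate (IP) of Hel2, a ubiquitin ligase that binds collided ribosomes, or an input of all footprints, and comes from either a membrane fraction, for which the labels name 1% TritonX-100, or a cytosolic fraction.

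The 3 strains were grown in YPD, a rich medium with glucose, at 30 °C, and all are MATa with ade2, his3, leu2, trp1, ura3 and can1 mutations and the tagged allele HEL2-FTP::natNT2. The strain labelled GIT1p also carries the deletion srp72::HISMX6 and the plasmid pRS415-GIT1p-SRP72-V5. The strain labelled SRP72p carries the same deletion and pRS415-SRP72p-SRP72-V5. The strain HEL2-FTP carries neither the deletion nor a plasmid. Every strain thus has the Hel2 tag, and nothing in the labels says whether replicates were separate cultures or whether a strain is more than 1 clone. The p-values below therefore measure the spread between these libraries, which may be technical.

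A MAL locus holds a permease gene, a maltase gene and an activator gene. The permease is a plasma membrane protein that imports maltose with protons, the maltase is a soluble enzyme that splits maltose into glucose, and the activator is a zinc cluster protein that binds the promoter between the other two genes and turns them on when maltose is present. Glucose represses the genes through the Mig1 repressor, and in glucose medium they are known for low expression. Laboratory strains often carry activators that do not work, in which case the structural genes stay low even with maltose.

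The positions are those of the R64 assembly, the RefSeq equivalent of the sacCer3 build named in the submitters' processing notes. On chromosome VII, IMA1 lies from 1067222 to 1068991, MAL13 from 1070293 to 1071714, MAL11 from 1073963 to 1075813 and MAL12 from 1076599 to 1078353. On chromosome II, MAL33 lies from 800523 to 801929, MAL31 from 802631 to 804475 and MAL32 from 805351 to 807105. Each permease gene stands head to head with its maltase gene, with 785 bases between the coding sequences of MAL11 and MAL12 and 875 bases between those of MAL31 and MAL32. MAL11 is also called AGT1 and encodes a permease with a broad choice of sugars. IMA1 encodes an isomaltase.

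Levels are CPM (counts per 1000000 counts) in libraries labelled GIT1p or SRP72p and RPM (reads per 1000000 reads, summed over the coding sequence) in HEL2-FTP libraries. These kinds of file were made separately, so a level in CPM beside one in RPM is not a tested comparison. The 16 count libraries held 2015928 to 13093023 counts, so 3 counts stood for 0.229 to 1.49 CPM. Marker genes differed between labels that share their genotype. LEU2, the marker of pRS415 and so present in both plasmid strains, was at 1982 ± 67.8 CPM in cytosolic inputs labelled GIT1p and at 65.1 ± 6.61 CPM in those labelled SRP72p (SD, n = 2 each). HIS3 was at 27.2 ± 2.11 CPM and TRP1 at 2.00 ± 0.622 CPM in the inputs labelled GIT1p, against 552 ± 28.3 CPM and 78.1 ± 7.72 CPM in those labelled SRP72p. SRP72, whose promoter the labels name, was at 375 ± 10.1 CPM in cytosolic inputs labelled GIT1p, against 142 ± 0.517 CPM in those labelled SRP72p. Strain names below are therefore names of labels. Fraction labels were checked with marker genes. In each strain, all 6 membrane markers (SEC61, OST1, STT3, KAR2, PDI1 and PMA1) were higher in both membrane inputs than in both cytosolic inputs. Of 6 cytosolic markers, all 6 were lower in both membrane inputs labelled GIT1p, and 4 were in each other strain. Their sum was 99500 to 100476 RPM in HEL2-FTP membrane inputs, against 105414 to 106019 RPM in the cytosolic inputs. Between fractions, limma called 1 of these 6 lower in HEL2-FTP, and edgeR called 0 for either plasmid strain. Membrane inputs were thus enriched for membrane markers but kept much of the cytosolic marker signal. The 2 membrane inputs labelled SRP72p were less alike than other replicates, at a chi-square per degree of freedom of 78.3, against 2.13 to 17.6 in the other groups of count libraries.

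The maltase genes MAL12 and MAL32 cannot be read as separate measurements. Their counts were equal in 4 of the 16 count libraries, and the ratio of MAL32 to MAL12 stayed between 0.890 and 1.15 over all 16. In the HEL2-FTP files, 80.0% to 91.4% of the codons covered in either gene held the same RPM in both, to within 1e-06 RPM. Codons that differed in any library lay in 7 stretches, from codon 1 to 9, 66 to 95, 131 to 150, 296 to 312, 458 to 481, 529 to 548 and 579 to 585. The values of both genes are therefore taken here as 1 measurement given under 2 names. How the authors placed reads that fit more than 1 gene is not given in the sources used here. The counts of the other paralogs were not tied in this way. Over the count libraries, the ratio of MAL33 to MAL13 ran from 0.273 to 1.52 and that of MAL31 to MAL11 from 0.0606 to 13.0. At the same codon number in HEL2-FTP, MAL13 and MAL33 held equal RPM at no more than 2 codons and MAL11 and MAL31 at no more than 9. These pairs differ in length, so reads shared at shifted codons would be missed. Whether they share some reads was not tested.

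**Figure D1:**
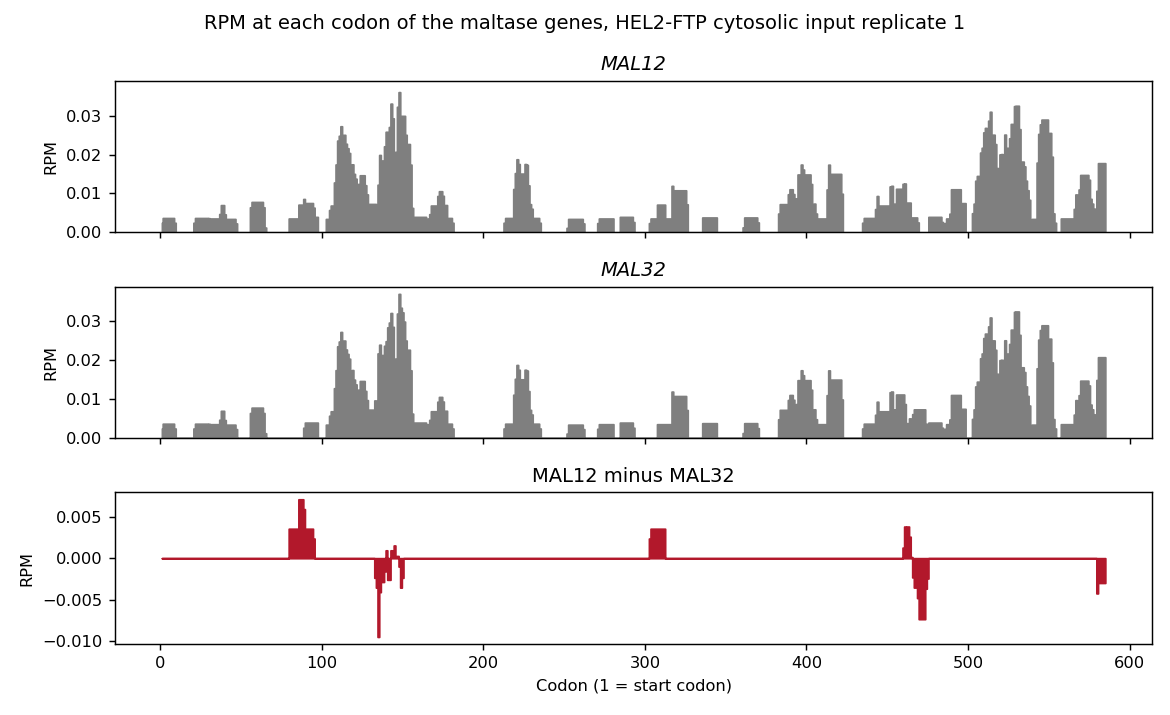
RPM at each codon of MAL12 (top) and MAL32 (middle), and the difference MAL12 minus MAL32 (bottom), in HEL2-FTP cytosolic input replicate 1. The profiles overlie each other except in a few short stretches, and 354 of 420 covered codons were equal.

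The maltase genes had the highest levels of the 7 in inputs labelled GIT1p. In cytosolic inputs, MAL12 was at 56.9 and 58.4 CPM in libraries labelled GIT1p, at 7.21 and 4.63 CPM in those labelled SRP72p, and at 4.05 and 2.84 RPM in HEL2-FTP. In membrane inputs it was at 49.7 and 48.7 CPM, against 6.98 and 3.74 CPM in libraries labelled SRP72p and 3.31 and 2.65 RPM in HEL2-FTP. All 4 inputs labelled GIT1p were thus above every other input, with a ratio of means to SRP72p of 9.73 in the cytosolic and 9.18 in the membrane inputs. MAL32, with its shared reads, followed at 53.7 ± 0.309 CPM in cytosolic inputs labelled GIT1p and 5.92 ± 1.83 CPM in those labelled SRP72p, a ratio of 9.07. In footprints of such bulk samples, fewer cells that express a gene, less RNA per cell and fewer ribosomes per RNA cannot be told apart.

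The isomaltase gene and the activators were also higher under the GIT1p label, by less. IMA1 was at 18.5 and 20.2 CPM in cytosolic inputs labelled GIT1p, against 9.62 and 6.94 CPM in those labelled SRP72p, a ratio of 2.34, with 7.52 and 6.12 RPM in HEL2-FTP. MAL33, the MAL3 activator, was at 15.5 and 12.5 CPM against 5.41 and 7.40 CPM, a ratio of 2.18, with 7.96 and 8.49 RPM in HEL2-FTP. MAL13, the MAL1 activator, was at 13.6 and 15.0 CPM in inputs labelled GIT1p against 9.02 and 7.87 CPM in those labelled SRP72p, a ratio of 1.69, with 11.0 and 10.3 RPM in HEL2-FTP. For each of these 3 genes the GIT1p and SRP72p libraries did not overlap. In membrane inputs the ratios were 2.06 for IMA1, 2.51 for MAL33 and 1.21 for MAL13.

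The permease genes stayed near the floor of the cytosolic inputs in every strain. MAL11 had 13 and 4 counts (1.20 and 0.306 CPM) in cytosolic inputs labelled GIT1p and 5 and 1 counts (1.503 and 0.231 CPM) in those labelled SRP72p, so the groups overlapped. MAL31 had 6 and 4 counts (0.552 and 0.306 CPM) against 2 and 7 counts (0.601 and 1.62 CPM), which puts the inputs labelled GIT1p lower by a ratio of means of 0.386 that rests on 10 and 9 counts. In HEL2-FTP cytosolic inputs MAL11 was at 0.138 and 0.155 RPM and MAL31 at 0.103 and 0.0388 RPM. If a read was spread over 36 positions, this amounts to 3.89 reads in each library for MAL11 and to 2.92 and 0.972 reads for MAL31. Maltase and permease levels thus differed: in cytosolic inputs labelled GIT1p, MAL12 was at 32.8 CPM per kilobase and MAL11 at 0.406, while in HEL2-FTP the values were 1.96 and 0.0791 RPM per kilobase. MAL12 shares its reads with MAL32, so the difference is not shown for the head-to-head partners of either locus alone.

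Counted over the 7 genes, 4 were at least 2-fold higher and 1 at least 2-fold lower in cytosolic inputs labelled GIT1p than in those labelled SRP72p, where 9.68% of 5714 genes were at least 2-fold higher and 3.48% lower. In membrane inputs 5 were higher and none was lower, against 6.55% and 3.78% of all genes. In cytosolic IPs 2 were higher (background 6.74%), and in membrane IPs 3 were (background 5.86%). Since the strains were part of the choice of genes, nothing is read from these counts. The scaling matters for the smaller ratios: with DESeq2-normalized counts only MAL12 (7.75) and MAL32 (7.22) of the cytosolic inputs stayed at least 2-fold higher, IMA1 was at 1.86 and MAL33 at 1.74. The median ratio of all genes was 1.15 in CPM and 0.913 with DESeq2 in those inputs.

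**Figure D2:**
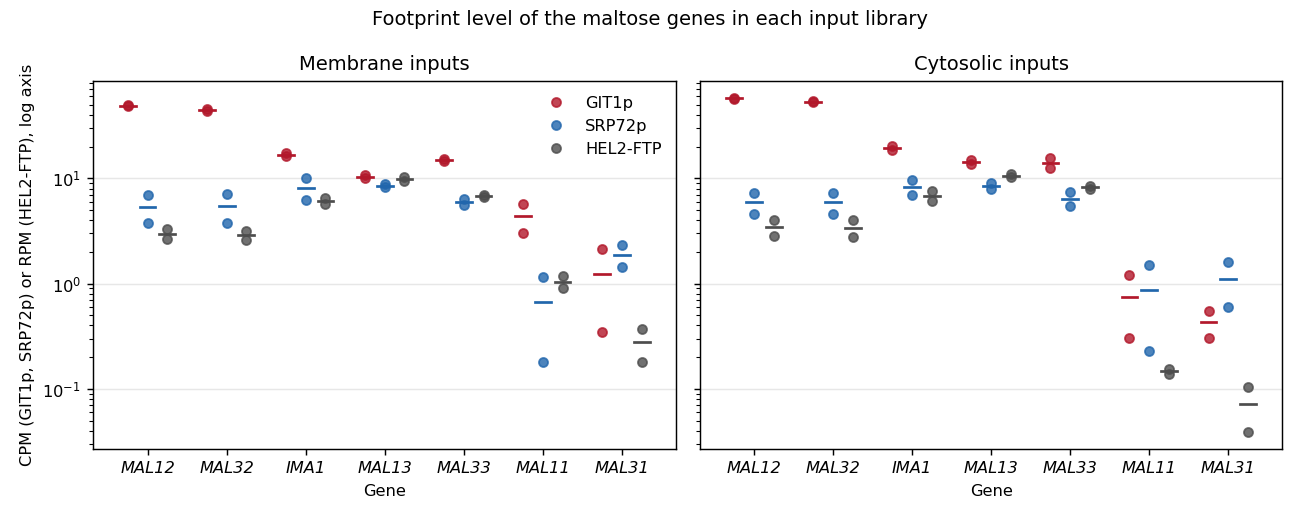
Level of each gene in every input library (points) and the group mean (line), on a log axis, in CPM for libraries labelled GIT1p and SRP72p and in RPM for HEL2-FTP; membrane inputs left, cytosolic inputs right. MAL12 and MAL32 are at 43.3 to 58.4 CPM in libraries labelled GIT1p and below 8 in all others, and the permease genes MAL11 and MAL31 lie lowest in every group.

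Per kilobase of coding sequence, the order of the genes differed between labels. In HEL2-FTP cytosolic inputs MAL13 came first at 7.47 RPM per kilobase, followed by MAL33, IMA1, MAL12 with MAL32, MAL11 and MAL31. In those labelled GIT1p MAL12 and MAL32 came first, followed by IMA1 at 10.9, MAL13 at 10.1 and MAL33 at 9.95 CPM per kilobase, which overlapped. In those labelled SRP72p MAL13 came first, and IMA1, MAL33, MAL32 and MAL12 came next with overlapping libraries. The permease genes were last in the inputs of all 3 strains.

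Between fractions, the permease gene MAL11 was higher in membrane inputs labelled GIT1p. MAL11 had 66 and 17 counts (5.66 and 3.03 CPM) in membrane inputs labelled GIT1p, against 13 and 4 counts (1.20 and 0.306 CPM) in the cytosolic inputs. Both membrane inputs lay above both cytosolic inputs, and MAL11 rose in the membrane inputs by 2.73 ± 0.65 on the log2 scale (SE, n = 2 each, edgeR adjusted p = 0.00641). It was the only member called of 7, where 16.7% of all genes were called. Among input groups, both MAL11 replicates reached the filter on low counts (2.31 CPM) only in these membrane inputs. MAL11 thus entered the test partly through the higher side of this comparison, so the call is a description. The call was lost without cytosolic input replicate 2 (2.00, edgeR adjusted p = 0.140) or without membrane input replicate 1 (2.14, edgeR adjusted p = 0.161). MAL31 was at 1.33 ± 0.77 in the same comparison (SE, edgeR adjusted p = 0.402), and was called without membrane input replicate 1 (2.39, edgeR adjusted p = 0.0276).

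In HEL2-FTP, MAL11 was at 0.916 and 1.17 RPM in membrane inputs against 0.138 and 0.155 RPM in cytosolic inputs, a ratio of means of 7.13 without overlap. Its mean over the 8 libraries was 0.633 RPM, under the minimum of 1 RPM for a test. MAL31 was at 0.373 and 0.181 RPM in membrane inputs and at 0.103 and 0.0388 RPM in cytosolic inputs, likewise without overlap and untested. In libraries labelled SRP72p the permease levels of the fractions overlapped, at 1 and 4 counts of MAL11 in membrane inputs and 5 and 1 in cytosolic inputs.

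Of the genes for soluble proteins, only MAL33 in HEL2-FTP was called between fractions. In inputs labelled SRP72p 0 of the 7 genes passed edgeR's test between fractions, at an adjusted p or at an unadjusted p below 0.05, and DESeq2 called 0, where edgeR called 20.8% of all genes. In HEL2-FTP, 1 of the 5 genes tested was called, where 54.2% of all genes were. MAL33 fell in the membrane inputs by 0.25 ± 0.10, as a log2 value (SE, limma adjusted p = 0.0498), with 6.93 and 6.71 RPM in membrane inputs against 7.96 and 8.49 RPM in cytosolic inputs. The median of all genes in that comparison was -0.13, and the call was lost without any 1 of the 4 inputs compared or without either membrane IP replicate, at limma adjusted p-values of 0.0673 to 0.166.

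Of the 5 genes tested in the HEL2-FTP strain, MAL13 had the largest rise in Hel2 IPs. It was at 44.4 and 41.7 RPM in cytosolic IPs, against 11.0 and 10.3 RPM in cytosolic inputs, and at 37.9 and 38.1 RPM in membrane IPs, against 10.3 and 9.54 RPM in membrane inputs. All 4 IPs stood about 4 times above all 4 inputs. The rise was 1.97 ± 0.07 on the log2 scale in the cytosolic fraction (SE, n = 2 each, limma adjusted p = 9e-11) and 1.89 ± 0.07 in the membrane fraction (limma adjusted p = 1.69e-10). Such rises were not rare among all genes: 14.4% of the 5532 genes tested had a larger log2 change in the cytosolic fraction and 11.9% in the membrane fraction.

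The paralog MAL33 and IMA1 rose by less in HEL2-FTP. MAL33 was at 10.9 and 13.0 RPM in cytosolic IPs against 7.96 and 8.49 RPM in cytosolic inputs, a rise of 0.51 ± 0.10 (SE, limma adjusted p = 0.000414), and it rose by 0.65 ± 0.10 in the membrane fraction (limma adjusted p = 5.66e-05). IMA1 was at 10.5 and 9.88 RPM in cytosolic IPs against 7.52 and 6.12 RPM in inputs, a rise of 0.55 ± 0.11 (SE, limma adjusted p = 0.000536), with 0.47 ± 0.11 in the membrane fraction (limma adjusted p = 0.00174). The maltase genes did not pass the test: MAL12 was at -0.06 ± 0.17 in both fractions and MAL32 at 0.08 ± 0.16 and 0.16 ± 0.16. In each fraction 3 of 5 members were called, all higher, where 89.2% of all genes were called in the cytosolic fraction (53.6% higher) and 88.4% in the membrane fraction (45.4% higher). By limma 0 of the 5 differed between fractions in this change, at an adjusted or an unadjusted p below 0.05, where 29.2% of all genes did. The median of all genes in the cytosolic fraction was 0.34, and when libraries were centred on their medians IMA1 (0.10, limma adjusted p = 0.371) and MAL33 (0.056, limma adjusted p = 0.610) lost their calls there, IMA1 lost its call in the membrane fraction (0.18, limma adjusted p = 0.120), and MAL12 was called lower in the cytosolic fraction (-0.51, limma adjusted p = 0.0115).

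The position of these footprints along MAL13 was read from the codon files. In bins of 20 codons, the IP level was above the input level in 23 of 23 full bins in each fraction. In the cytosolic fraction the ratio of IP to input ran from 1.13 in the bin that starts at codon 401 to 7.84 in the bin that starts at codon 121, with a median of 4.04. In the membrane fraction it ran from 2.04 to 6.79 with a median of 3.94. The separation was thus spread over the gene and did not come from 1 site: no codon held more than 0.951% of the RPM in any library, and the IPs covered 99.4% to 100% of the 474 codons. The first 60 codons held 10.4% to 11.4% of the RPM in cytosolic IPs and 5.81% to 9.72% in cytosolic inputs, while the membrane IPs, at 11.4% to 13.5%, overlapped the membrane inputs, at 9.93% to 11.7%. MAL33 had an IP level above input in 19 of 23 bins of the cytosolic fraction, with a median ratio of 1.53, and in all 23 of the membrane fraction, with a median of 1.58.

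**Figure D3:**
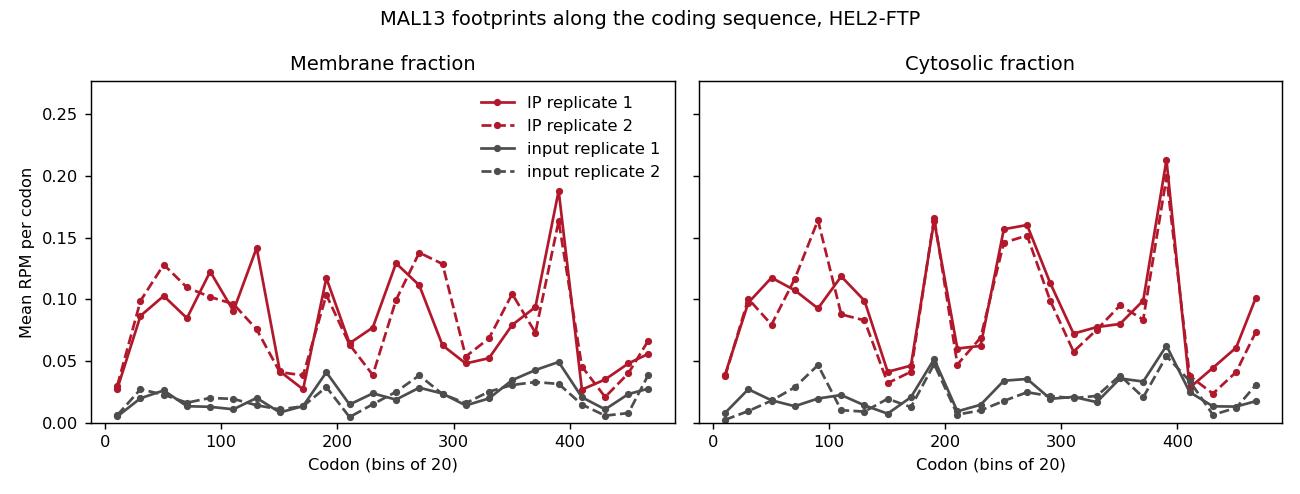
Mean RPM per codon of MAL13 in bins of 20 codons in HEL2-FTP, for each IP (red) and input (grey) library; membrane fraction left, cytosolic fraction right. The IP curves lie above the input curves over most of the gene, with the smallest ratio of means in the bin that starts at codon 401.

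In the cytosolic fraction of the plasmid strains the permease genes were higher in IPs than in inputs. They entered the test through those libraries: both replicates of MAL31 reached the count filter of 2.31 CPM in the 4 IP groups alone, and those of MAL11 in 3 IP groups and the GIT1p membrane inputs. Their size relative to the other members is therefore not read. The p-values given here and below for their IP over input changes are likewise a description and no support for a rise. MAL31 had 40 and 36 counts (8.47 and 7.70 CPM) in cytosolic IPs labelled GIT1p, against 6 and 4 counts (0.552 and 0.306 CPM) in cytosolic inputs, and rose by 4.54 ± 0.61 on the log2 scale (SE, edgeR adjusted p = 1.11e-05). MAL11 had 31 and 46 counts (6.56 and 9.83 CPM) in those IPs against 13 and 4 counts in inputs, a rise of 3.83 ± 0.65 (SE, edgeR adjusted p = 0.000114). Both IPs lay above both inputs for each gene.

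Libraries labelled SRP72p gave rises of the permease genes in the same fraction. MAL31 had 21 and 31 counts (6.98 and 7.37 CPM) in cytosolic IPs, against 2 and 7 counts in inputs, and rose by 2.65 ± 0.67 (SE, edgeR adjusted p = 0.0028). MAL11 had 17 and 17 counts (5.65 and 4.04 CPM) in IPs, against 5 and 1 counts in inputs, and rose by 2.60 ± 0.89 (SE, edgeR adjusted p = 0.0179). The call of MAL11 was lost without cytosolic input replicate 2 (1.63, edgeR adjusted p = 0.172) or cytosolic IP replicate 1 (2.36, edgeR adjusted p = 0.0752).

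In HEL2-FTP the permease genes pointed the same way in the cytosolic fraction, untested for their low level. MAL11 was at 0.557 and 0.689 RPM in cytosolic IPs against 0.138 and 0.155 RPM in inputs, a ratio of means of 4.25, and MAL31 at 0.360 and 0.232 RPM against 0.103 and 0.0388 RPM, a ratio of 4.17. In the membrane fraction the libraries overlapped: MAL11 was at 0.484 and 0.948 RPM in IPs and 0.916 and 1.17 RPM in inputs, and MAL31 at 0.348 and 0.880 RPM in IPs and 0.373 and 0.181 RPM in inputs.

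In the membrane fraction, MAL31 kept a rise in libraries labelled GIT1p. It had 24 and 16 counts (8.43 and 5.36 CPM) in membrane IPs against 4 and 12 counts (0.343 and 2.14 CPM) in membrane inputs, a rise of 3.18 ± 0.62 (SE, edgeR adjusted p = 0.000492). MAL11 had 26 and 14 counts (9.13 and 4.69 CPM) in IPs and 66 and 17 counts (5.66 and 3.03 CPM) in inputs, which overlapped, at 1.04 ± 0.60 (SE, edgeR adjusted p = 0.142). MAL11 was the only gene of the 7 that edgeR called for a difference between fractions in the IP to input change of those libraries, by -2.79 ± 0.88 for membrane over cytosolic (SE, edgeR adjusted p = 0.0391), where 18.6% of all genes were called. At an unadjusted p below 0.05 there were 4 members, and DESeq2 called 3, MAL11 among them, with MAL13 at 1.07 (DESeq2 adjusted p = 0.0499) and MAL32 at 0.86 (DESeq2 adjusted p = 0.0434). The edgeR call of MAL11 was lost without any of cytosolic input replicate 2, cytosolic IP replicate 2, membrane input replicate 1 or membrane IP replicate 2. Under the SRP72p label the permease genes were at 1.18 ± 0.66 for MAL31 (SE, edgeR adjusted p = 0.135) and 1.49 ± 1.17 for MAL11 (SE, edgeR adjusted p = 0.290) in the membrane fraction. Under that label 0 of the 7 differed between fractions in IP over input, by edgeR at an adjusted or an unadjusted p below 0.05 or by DESeq2, where edgeR called 22.9% of all genes.

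Other genes of low input level that passed the count filter were also higher in the IPs of these strains, which was looked at after the permease values were seen. Such genes pass the filter mainly through libraries where they are higher, so part of this is set by the filter. Genes at 0.2 to 2 CPM in the cytosolic inputs of the other plasmid strain had a median IP to input ratio of 2.60 in the cytosolic libraries labelled GIT1p (292 genes), against 0.757 for all genes, and of 4.14 in those labelled SRP72p (224 genes), against 1.04 for all. Of these low genes, 54.8% under GIT1p and 72.3% under SRP72p were at least 2-fold higher in the cytosolic IPs, against 22.8% and 27.8% of all genes. The ratios of means of MAL31 were 18.8 (GIT1p) and 6.46 (SRP72p), and those of MAL11 10.9 and 5.59. What part the low level itself has in the permease rises was not tested.

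In HEL2-FTP, where positions are known, most of the permease IP footprints lay before the start codon. The codon files carry 102 triplets before the start of MAL11 and 141 before that of MAL31. Of the RPM on the whole MAL11 transcript, 71.4% and 72.5% lay in this leader in cytosolic IPs and 72.1% and 69.3% in membrane IPs, against 13.8% and 13.3% in membrane inputs and 33.3% and 0% in cytosolic inputs. The IP shares rest on about 32.5 to 63.2 leader reads per library, and the input shares on at most 4.00. For MAL31 the leader held 68.9% and 79.0% in cytosolic IPs and 67.9% and 38.1% in membrane IPs, against 16.7% and 0% in membrane inputs. Its cytosolic inputs, with 62.5% and 80.0%, held fewer than 5 leader reads each.

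The leader footprints gathered at like places in separate libraries. In the 4 IPs the triplet with most leader RPM of MAL11 lay 77 to 83 triplets before the start codon, and 40.3% to 51.7% of the transcript's RPM lay within 5 triplets of it. For MAL31 the highest triplet lay 105 to 106 triplets before the start in all 4 IPs, with 19.5% to 26.7% of the RPM within 5 triplets of it. That share was 32.4% and 25.3% in its cytosolic inputs, which rest on few reads. In the inputs with leader reads, the highest triplet lay at 110, 135 and 111 for MAL31 and at 102, 85 and 85 for MAL11. The gathering is thus not shown to be particular to IPs. For the other 5 genes the files carry less leader: 26 triplets for MAL13, 15 for MAL33 and 0 for IMA1, MAL12 and MAL32, so their shares are no contrast with the permease genes. The levels given above for HEL2-FTP count the coding sequence only, and whether the gene counts of the other strains include the leader is not given in the sources used here.

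**Figure D4:**
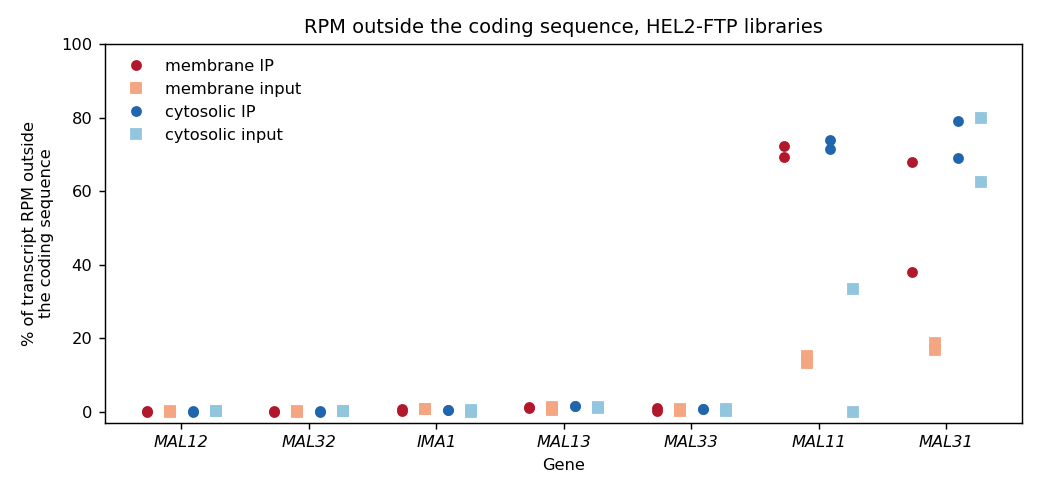
Percent of each transcript's RPM that lay outside the coding sequence in each HEL2-FTP library. MAL11 lies at 69.3% to 73.8% in the IPs and at no more than 33.3% in the inputs, and MAL31 is high in IPs and in cytosolic inputs of few reads. The files carry 0 leader triplets for IMA1, MAL12 and MAL32 and few for MAL13 and MAL33, so their low shares are no contrast.

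The maltase genes were lower in the cytosolic IPs labelled GIT1p than in the inputs. MAL12 was at 30.5 and 26.1 CPM in cytosolic IPs against 56.9 and 58.4 CPM in cytosolic inputs, at -0.67 ± 0.17 on the log2 scale (SE). MAL32 was at -0.70 ± 0.17 there (SE), and is no second measurement. The IPs lay below the inputs without overlap, but the high level of these inputs is part of what the genes were chosen on, so the values are a description. By edgeR 4 of 7 members were called, the permease genes higher and the maltase genes lower, where 69.5% of all genes were called (36.3% higher and 33.2% lower). Nothing is read from these calls.

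In the membrane fraction labelled GIT1p, a call for the maltase genes depended on the scaling. The levels of these inputs and of those labelled SRP72p are part of what the genes were chosen on. The values are therefore a description, and nothing is read from the calls given here. MAL12 was at 32.7 and 36.9 CPM in membrane IPs and 49.7 and 48.7 CPM in membrane inputs, lower in CPM by a ratio of 0.707, while the median ratio of all genes in CPM was 0.625. On the scaled log2 values MAL12 was at -0.06 ± 0.18 (SE, edgeR adjusted p = 0.776), and was called lower with library size alone (-0.50, edgeR adjusted p = 0.0232) and with totals implied by the RPKM (-0.96, edgeR adjusted p = 0.0391), as was MAL32 (-0.48 and -0.94). Under the SRP72p label MAL12 was at 9.89 and 6.45 CPM in membrane IPs and 6.98 and 3.74 CPM in membrane inputs, which overlap in CPM, and rose by 0.77 ± 0.30 (SE, edgeR adjusted p = 0.0389). That call was lost without membrane input replicate 2 (0.45, edgeR adjusted p = 0.217) or membrane IP replicate 1 (0.32, edgeR adjusted p = 0.608), and MAL32 with nearly the same counts was at 0.70 ± 0.30 (edgeR adjusted p = 0.0551).

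MAL13 was not called in the cytosolic fraction of either plasmid strain. It was at 10.8 and 11.5 CPM in cytosolic IPs labelled GIT1p and 13.6 and 15.0 CPM in inputs, at 0.01 ± 0.21 on the log2 scale (SE, edgeR adjusted p = 0.983). Under the SRP72p label it was at 9.96 and 10.2 CPM in cytosolic IPs and 9.02 and 7.87 CPM in inputs, at 0.32 ± 0.26 (SE, edgeR adjusted p = 0.293). In the membrane fraction it was higher in IPs under both labels, by 0.88 ± 0.23 for GIT1p (SE, edgeR adjusted p = 0.00471) and 1.04 ± 0.25 for SRP72p (SE, edgeR adjusted p = 0.0021). The inputs of both labels are part of what the genes were chosen on. These values are therefore a description, and nothing is read from the calls. The membrane IPs were at 17.2 and 11.1 CPM (GIT1p) and 15.6 and 16.4 CPM (SRP72p), against inputs at 10.7 and 9.98 CPM (GIT1p) and 8.77 and 8.33 CPM (SRP72p). The GIT1p call was lost without membrane IP replicate 1 (0.50, edgeR adjusted p = 0.138), and with library size alone as the scale (0.44, edgeR adjusted p = 0.1004). The SRP72p call was lost with totals implied by the RPKM (0.79, edgeR adjusted p = 0.223). Differences between HEL2-FTP and the plasmid strains were not tested, since the files hold separate units.

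With TMM scaling, MAL33 and IMA1 were not called in IP over input in either plasmid strain. MAL33 was at 7.02 and 6.37 CPM in membrane IPs labelled GIT1p and 14.6 and 15.2 CPM in membrane inputs, at -0.71 ± 0.32 (SE, edgeR adjusted p = 0.0699), and IMA1 at 0.23 ± 0.27 (SE, edgeR adjusted p = 0.486). MAL33 was called lower there with library size alone (-1.15, edgeR adjusted p = 0.0038) and with totals implied by the RPKM (-1.61, edgeR adjusted p = 0.00585). In the cytosolic fraction labelled GIT1p MAL33 was called at -0.64 and -1.19 with those scalings, and IMA1 at -1.01 with the RPKM totals (edgeR adjusted p = 0.0467). The inputs labelled GIT1p are part of what the genes were chosen on, so nothing is read from these lower calls. Over the 7 genes, 2 were called in the membrane fraction of each label and 2 in the cytosolic fraction labelled SRP72p, where 62.4% (GIT1p membrane), 60.1% (SRP72p membrane) and 68.7% (SRP72p cytosolic) of all genes were called. Whether these changes differ between the GIT1p and SRP72p labels rests on the same inputs with which the genes were chosen. By edgeR 0 of the 7 were called in each of the 3 such comparisons, with 0 (cytosolic IP over input), 3 (membrane IP over input) and 1 (membrane over cytosolic input) at an unadjusted p below 0.05 and 0 by DESeq2, where edgeR called 11.1%, 2.45% and 0.0875% of all genes. Nothing is read from these counts, and the labels are not shown to differ or to be alike.

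**Figure D5:**
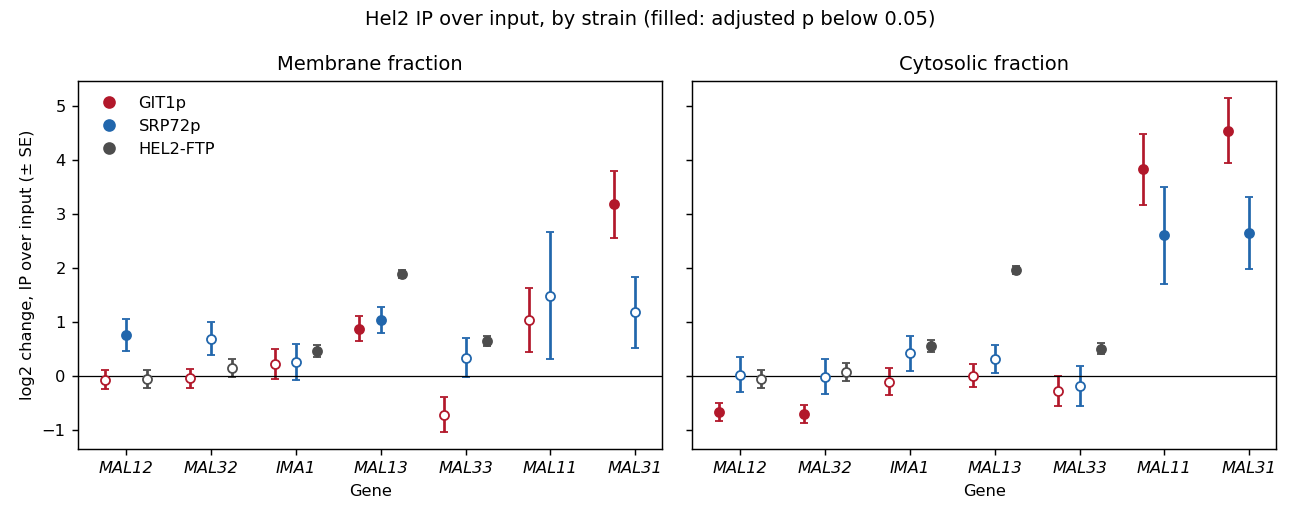
Log2 change of Hel2 IP over input (points, ± SE) for each gene by strain label, from edgeR (GIT1p, SRP72p) and limma (HEL2-FTP, 5 genes tested); filled points have an adjusted p below 0.05. MAL31 and MAL11 reach 4.54 and 3.83 in the cytosolic fraction labelled GIT1p, and MAL13 is near 2 in both fractions of HEL2-FTP. The permease genes passed the count filter mainly through IPs, so their filled points are a description.

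Among 8 other genes of maltose and isomaltose use, 6 were at least 2-fold higher in cytosolic inputs labelled GIT1p than in those labelled SRP72p, where 9.68% of all genes were. In membrane inputs the same 6 were higher and MPH2 and MPH3 were lower, each at 3 counts under GIT1p and 7 under SRP72p, with overlapping libraries. ZNF1, a regulator of maltose metabolism and respiration, had 170 counts over both libraries against 5, a ratio of 12.2. The isomaltase genes IMA2, IMA3 and IMA4 were at 3.18, 3.34 and 3.34, of which IMA3 and IMA4 had equal counts in 16 of 16 libraries. IMA3 and IMA4 are therefore not separate measurements. The list was written with earlier results of these data known, so nothing is read from the number of genes. IMA5 had 44 counts against 0. The cytosolic inputs labelled GIT1p were deeper, at 10862754 and 13093023 counts against 3327159 and 4322933 under SRP72p, so raw counts overstate such contrasts. YPR196W, a putative activator, was at 2.07. That ratio is near the 2-fold limit in CPM, where the median of all genes was 1.15, so it depends on the scaling. MPH2 and MPH3, permease genes of the same family, had 0 counts in the cytosolic inputs of both labels.

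Of the same 8 genes, 4 rose in the cytosolic IPs labelled GIT1p (MPH2, MPH3, ZNF1 and IMA5) and 4 in those labelled SRP72p, and none fell, where 36.3% (GIT1p) and 37.7% (SRP72p) of all genes were called higher. MPH2 and MPH3, with no counts in the cytosolic inputs of either label, could only rise there. Their counts were equal in 12 of the 16 count libraries, so they are not separate rises, and nothing is read from the count of genes. ZNF1 rose by 1.51 ± 0.32 under GIT1p (SE, edgeR adjusted p = 0.000674) and by 3.11 ± 0.65 under SRP72p (SE, edgeR adjusted p = 0.00071). The SRP72p value rests on the few counts of ZNF1 in those inputs, given above, so its size is not read. In HEL2-FTP, 2 of the 5 tested rose in cytosolic IPs, ZNF1 by 2.59 ± 0.16 (limma adjusted p = 1.02e-08) and YPR196W by 1.44 ± 0.12 (limma adjusted p = 2.2e-07), where 53.6% of all genes rose.

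Of the genes that signal glucose, none of 9 (MIG1, MIG2, REG1, GLC7, HXK2, SNF1, SNF4, CYC8 and TUP1) was at least 2-fold apart between labels in either input, and MIG1, at a ratio of 1.88 in cytosolic inputs, was the highest. Of all genes, 9.68% were at least 2-fold higher and 3.48% lower in cytosolic inputs, and 6.55% and 3.78% in membrane inputs, so a list of 9 with 0 is not read as particular. Of 11 measured glucose-repressed genes outside the maltose loci, 4 were at least 2-fold higher in cytosolic inputs labelled GIT1p and 7 in membrane inputs, against those same shares of all genes. CAT2, a carnitine acetyltransferase gene, was at 5.16, MLS1, a malate synthase gene, at 3.20 and CAT8, a regulator of gluconeogenesis genes, at 2.52 in cytosolic inputs, and the invertase gene SUC2 at 1.72. These ratios are in CPM, where the median of all genes was 1.15 in cytosolic and 1.08 in membrane inputs. Ratios near 2 thus depend on the scaling, and nothing is read from the counts of genes.

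The sum of the 7 genes was 160 CPM in cytosolic inputs labelled GIT1p and 36.9 CPM in those labelled SRP72p, and in membrane inputs 141 CPM under GIT1p and 36 CPM under SRP72p. In cytosolic IPs the sum was 104 CPM under GIT1p and 49.3 CPM under SRP72p, and in membrane IPs 116 CPM under GIT1p and 52.6 CPM under SRP72p. These sums count the reads that MAL12 and MAL32 share in both genes. Over the means of the 8 groups, the genes most like this sum in log2(CPM + 1), among 5211 genes with a mean of at least 5 CPM, included the glycogen synthase gene GSY2 (Pearson r = 0.994), the glycogen phosphorylase gene GPH1 (0.994), LEU2 (0.993) and ACH1 (0.982). The 8 points are 2 strain labels with shared libraries, so that any gene that differs between labels correlates, and LEU2 is the plasmid marker of both.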

How the data were processed

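Per the labels, footprints were made with RNase I, and sequencing libraries were built by a published protocol. The submitters' processing notes name CASAVA 1.8, UMI-tools, Bowtie2, TopHat and sacCer3, with no roles; how reads of several genes were assigned is not given in the sources used here. For HEL2-FTP the authors deposited RPM per codon of 6663 transcripts; for GIT1p and SRP72p the authors deposited whole-number counts of 6696 genes with RPKM values, and the RPKM served only to derive library totals (counts were 25.6% to 82.0% of them). The ratio per codon that the authors deposited was not used.

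Groups and replicates came from the sample titles. Counts were tested with edgeR 4.0.16 (R 4.3.3; quasi-likelihood test, TMM scaling, default filter, 5714 genes, all 16 libraries in 1 fit). RPM was summed over the coding sequence and tested with limma 3.58.1 on log2(RPM + 0.5) with an intensity trend, for the 5532 genes that averaged 1 RPM or more over the 8 libraries; fold changes on that scale understate the change of low genes. All 7 genes passed the count filter, MAL11 and MAL31 through their IP or GIT1p libraries: both replicates reached the filter level of 2.31 CPM in 4 of 8 groups for each. By the RPM filter 5 of the 7 passed, without MAL11 and MAL31. Genes were called at p-values below 0.05 after Benjamini-Hochberg adjustment over all genes tested. The 7 genes, the lists of 8, 9 and 14 other genes (11 of the 14 passed the count filter) and the rule for the most alike genes were chosen with earlier results of these data known. That rule names 5 genes, of which 1 is not reported here. The approximate reads of the codon files assume that 1 read is spread over 36 positions. Intervals are not given for counts; floors of 3 counts cover counting error only. The tests were tested on simulated data first. Alternatives were other scalings (library size, DESeq2 1.42.0 size factors, totals from RPKM), DESeq2, other filters and pseudocounts, median centring, a replicate block, paralog pairs summed and each library left out.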

Additional observations from a re-analysis of the deposited data

Results flagged for a closer look

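MAL11 was called for a difference between fractions in IP over input under GIT1p, at -2.79 on the log2 scale for membrane over cytosolic (edgeR adjusted p = 0.0391). Both fractions' counts were under 70 per library. MAL11 passed the count filter only through IP groups and the GIT1p membrane inputs, so the call is a description. It was lost without any of cytosolic input replicate 2, cytosolic IP replicate 2, membrane input replicate 1 or membrane IP replicate 2.

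For 5 gene and fraction pairs, every IP lay above every input in 1 strain and below in another. These are ratios of means, IP over input, in RPM or CPM. IMA1 in the cytosolic fraction was at 0.725 under GIT1p and 1.496 in HEL2-FTP. MAL13 in the cytosolic fraction was at 0.781 under GIT1p, 1.20 under SRP72p and 4.06 in HEL2-FTP. MAL33 was at 0.639 under GIT1p and 1.45 in HEL2-FTP in the cytosolic fraction, and at 0.450 under GIT1p and 1.61 in HEL2-FTP in the membrane fraction. MAL32 in the membrane fraction was at 0.720 under GIT1p and 1.51 under SRP72p. The differences from HEL2-FTP were not tested. Between GIT1p and SRP72p the differences on the scaled log2 values were -0.31 for MAL13 and -0.74 for MAL32, from inputs with which the genes were chosen, so no test of them is read. In CPM the median ratio of all genes under GIT1p was 0.757 in the cytosolic and 0.625 in the membrane libraries, so that MAL13 (0.781) and MAL32 (0.720) lay above that median, and on the scaled log2 values they were at 0.01 and -0.04. IMA1 (0.725) and MAL33 (0.639 and 0.450) lay below it, at -0.10, -0.28 and -0.71 on the scaled log2 values with no call. In the HEL2-FTP cytosolic fraction the median of all genes was 0.34 on the log2 scale. With those libraries centred on their medians, IMA1 (0.10) and MAL33 (0.056) lost their calls there.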

How the results depend on the processing

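Of 1178 values of the members under alternatives, 1125 kept direction and side of the threshold, 26 lost a call, 25 gained 1 and 2 changed sign with a call on either side; among values with no call in either setting, 102 changed sign. With totals implied by RPKM, MAL13 in GIT1p membrane IP over input was at -0.054 (edgeR adjusted p = 0.927), and with HEL2-FTP libraries centred on their medians, MAL32 in cytosolic IP over input was at -0.37 (limma adjusted p = 0.0447). The cause was not tested.

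The numbers of members called moved as follows. With paralog pairs summed, which leaves 4 features and counts the shared maltase reads in duplicate, 1 was called in SRP72p cytosolic IP over input (2 of 7 as reported), 2 in GIT1p cytosolic IP over input (4 as reported) and 1 in GIT1p membrane IP over input (2 as reported). With library size alone, SRP72p membrane IP over input had 1 and GIT1p membrane IP over input 4, and with totals implied by RPKM 0 and 4, each 2 as reported. The GIT1p difference between fractions had 4 with DESeq2 size factors in edgeR and 3 with DESeq2, 1 as reported. In HEL2-FTP membrane over cytosolic input, 0 were called with a pseudocount of 0.1 and 5 with centring, 1 as reported, and in the HEL2-FTP difference between fractions 1 without a filter on low values, 0 as reported. DESeq2-normalized counts left 2 members at least 2-fold higher between strains in cytosolic inputs, 4 as reported.

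Without each library in turn, the called members ran from 1 to 2 in SRP72p cytosolic IP over input, 1 to 3 in SRP72p membrane IP over input, 4 to 4 in GIT1p cytosolic and 1 to 2 in GIT1p membrane IP over input, 0 to 1 in GIT1p membrane over cytosolic input and in the GIT1p difference between fractions, 3 to 3 in both HEL2-FTP IP over input comparisons, 0 to 1 in HEL2-FTP membrane over cytosolic input, 3 to 4 for levels between strains, and 0 to 0 in the others.

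The labels number replicates alike in each group, but with 2 pairs a comparison the numbers are not shown to pair libraries: correlations of the replicate differences ran from -0.0780 to 0.421. A replicate block left the number of members called as reported in every comparison, for example 4 in GIT1p cytosolic and 3 in HEL2-FTP cytosolic IP over input. Depth limits the permease genes most, at 1 to 13 counts in cytosolic inputs.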
